A study of Mus musculus with 2 samples.

Results

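The Dlk1-Dio3 cluster is an imprinted stretch of mouse chromosome 12 that runs from Dlk1 to Dio3. Its transcripts were followed here on 1 array of a wild-type fetal mandible and 1 array of a mandible lacking Myf5 and MyoD, both at E18.5, late in gestation. The members are all probe sets annotated to a gene from Dlk1 to Dio3 inclusive, those that name several genes included, and there are 51 of them among 35557 probe sets in all. The cluster was picked for study from the differences between these same arrays, so those differences are given as a description, with no test. RefSeq places 103 genes in this interval on GRCm38.p6, and 53 of them, of 21335 genes named on the array, are named by a member probe set: all 3 protein-coding genes, 42 of 61 microRNA genes, 4 of 19 small nucleolar RNA (snoRNA) genes and 4 of the other noncoding genes. The remaining 50 genes were not analysed here.

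In an imprinted cluster each gene is read mainly from the copy inherited from one parent. Here the protein-coding genes Dlk1, Rtl1 and Dio3 are read from the paternal copy. The long noncoding RNAs Meg3, Rian and Mirg, with the microRNAs and box C/D snoRNAs cut from them or from the strand opposite Rtl1, come from the maternal copy and are thought to be made as a run of RNA that starts at the Meg3 promoter. The cluster is known for its activity in fetal tissues, skeletal muscle among them, and for effects on growth, muscle and fat when its dosage is altered.

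The wild-type sample was a BALB/c mandible. The double-knockout sample was null for Myf5 and Myod1 on the same background, and fetuses without these factors form no skeletal muscle. How many embryos were used per sample is not stated in the sources used here. With 1 array per genotype there is no replicate check, no test between genotypes was possible, and every difference compares these 2 arrays alone.

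Several mature sequences are shown first because the microRNA genes make up most of the members. They were copied from the RefSeq table for GRCm38.p6, which held a mature sequence for all 42 microRNA genes named by a member. Bases 2 to 8, the seed that pairs with target messages, are in capitals. The first set comes from Mir300, Mir377 and Mir369, the 3 hairpins with the lowest differences as deposited, and from Mir134. The first 3 lay under the floor in the double knockout, a chosen cut that is defined below. The sizes of their differences are thus taken as not measured and have no order, whereas Mir134 was above the floor on both arrays.
mmu-miR-300-3p, chr12:109724363-109724384, plus strand: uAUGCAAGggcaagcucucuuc
mmu-miR-377-3p, chr12:109740553-109740574, plus strand: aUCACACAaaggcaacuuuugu
mmu-miR-369-3p, chr12:109743466-109743486, plus strand: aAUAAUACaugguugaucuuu
mmu-miR-134-5p, chr12:109734145-109734166, plus strand: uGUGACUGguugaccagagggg
The next set holds the pairs of member genes that share a seed, which are 3 pairs among 80 mature sequences with 77 different seeds.
mmu-miR-379-3p, chr12:109709102-109709123, plus strand: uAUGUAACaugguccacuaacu
mmu-miR-411-3p, chr12:109710225-109710246, plus strand: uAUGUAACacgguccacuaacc
mmu-miR-376b-5p, chr12:109723471-109723492, plus strand: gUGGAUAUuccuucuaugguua
mmu-miR-376c-5p, chr12:109722733-109722754, plus strand: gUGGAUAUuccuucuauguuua
mmu-miR-494-5p, chr12:109715334-109715355, plus strand: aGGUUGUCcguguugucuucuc
mmu-miR-410-5p, chr12:109743729-109743749, plus strand: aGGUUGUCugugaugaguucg
The last comes from Mir666, the member whose values differed least.
mmu-miR-666-5p, chr12:109717103-109717124, plus strand: aGCGGGCAcagcugugagagcc

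The deposited values are log2 signals, and a difference is given as double knockout minus wild type. Among all 51 member probe sets, each was lower in the double knockout, whereas 41% of all probe sets and 58% of 324 microRNA probe sets elsewhere in the genome were lower. On the values as deposited, 41 of the 51 were lower by 2-fold or more and none was higher by as much. The same drop was seen in 1.99% of all probe sets and in 0.309% of the microRNA probe sets elsewhere. The latter had lower signal, with a median of 3.50 on the wild-type array, against 6.48 for the members. The median member difference was -1.68, with a range from -3.32 for Mir300 to -0.04 for Mir666. The median over all probe sets was 0.04.

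**Figure D1:**
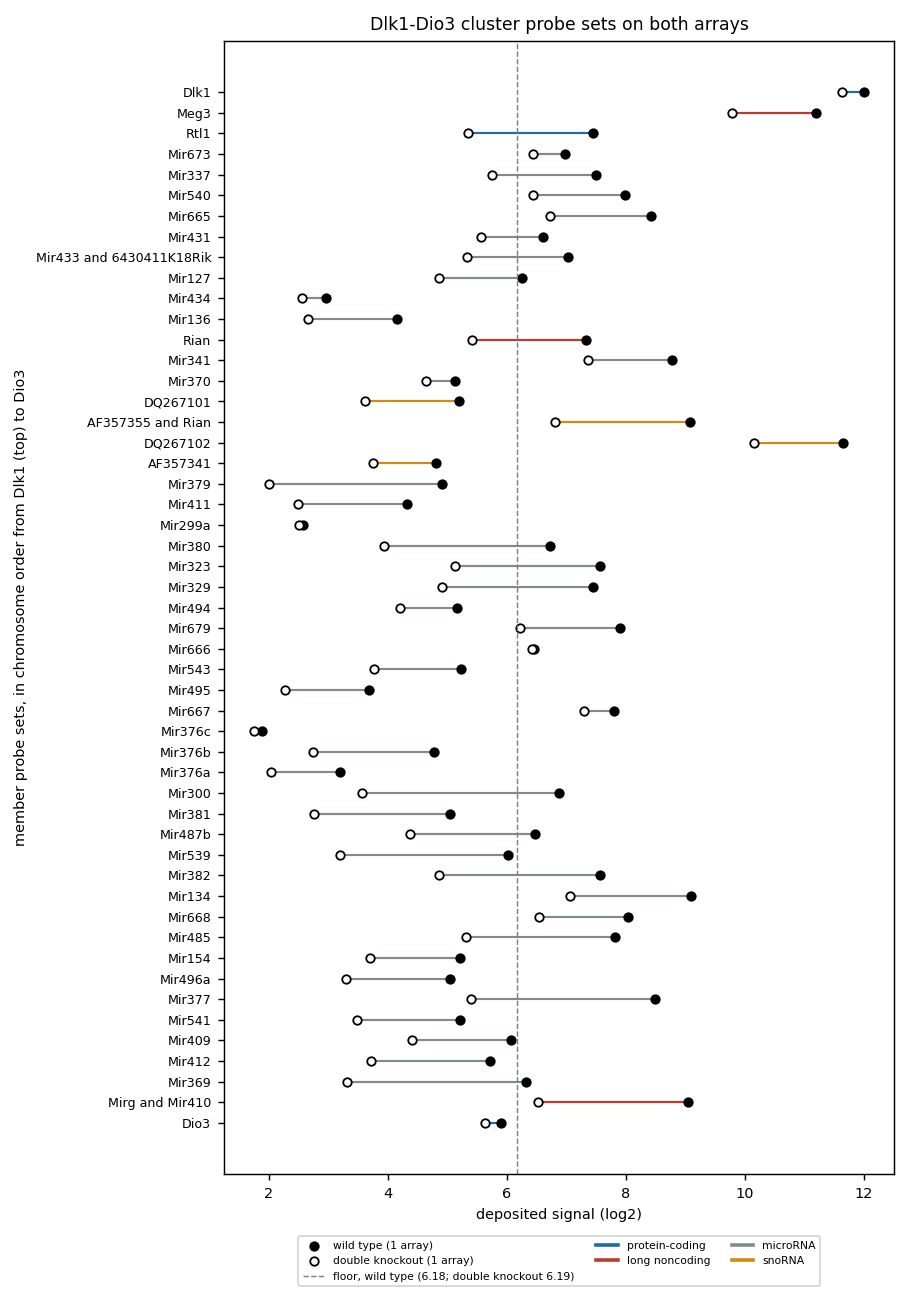
Deposited log2 signal (horizontal axis) of the 51 member probe sets, listed in chromosome order, on the wild-type array (filled points) and the double-knockout array (open points). Line colour gives the class and the dashed line the floor of 6.18. Every open point lies to the left of its filled point, and Dlk1, Dio3 and Mir666 are among the shortest lines.

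Low values on an array can be close to background, so a floor was chosen, without a detection call or background probes. It is each array's median over probe sets with an annotated gene (6.18 for the wild type, 6.19 for the double knockout). On the wild-type array 29 of the 51 members exceeded it, 14 of these exceeded it on the double-knockout array as well, and 22 lay under it on both arrays. With low values raised to the floor, 18 of the 29 were lower by 2-fold or more and 0 were higher by as much. Of the 14 above the floor on both arrays, 10 were lower by 2-fold or more. The other 8 of the 18 were above it on the wild-type array alone, where only a lower value was possible. Of all 15230 probe sets above the floor on at least 1 array, 2.28% were lower and 0.453% higher by 2-fold or more, with low values raised likewise. Among these 15230, 1473 were above the floor on 1 array alone. A member that began just above the floor could not show a 2-fold difference this way, and 15 of the 29 differences are lower bounds, written as "at least". Of the 22 members under the floor on both arrays, 16 had deposited values at least 2-fold lower. The same was true of 1.09% of all probe sets under the floor and of 0 of 284 such microRNA probe sets elsewhere.

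Of the 3 paternally expressed genes, Dlk1 alone was above the floor on both arrays. Dlk1 encodes a transmembrane protein with EGF-like repeats, related to Notch ligands and abundant in fetal mesenchyme. Its probe set gave 12.0002 for the wild type and 11.64 for the double knockout, a difference of -0.36 or 1.29-fold. For scale, in 532 genes read by several probe sets the difference changed from the brightest to the next brightest probe set with an SD of 0.23, which leaves out the spread between animals and between hybridisations. Rtl1, a retrotransposon-derived gene with known roles in placental vessels and in fetal muscle, gave 7.45 and 5.36. Its double-knockout value lay under the floor, so it was at least 2.40-fold lower, and 4.27-fold lower on the deposited values. Dio3, the deiodinase that inactivates thyroid hormone, lay under the floor on both arrays at 5.91 and 5.63. Rtl1 overlaps its microRNA-bearing antisense transcript, and the strand its probe set reads is not stated in the sources used here. Sense and antisense RNA cannot be told apart in its value.

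The 3 probe sets that read the long noncoding hosts Meg3, Rian and Mirg under those names, and the one Rian shares with a snoRNA, were at least 2-fold lower. Meg3, an RNA reported to bind the Polycomb complex PRC2, gave 11.20 and 9.78, a difference of -1.43 or 2.69-fold. It was above the floor on both arrays. Rian, the snoRNA host, has a probe set of its own, which gave 7.32 and 5.41, at least 2.20-fold lower with the double knockout under the floor. A further probe set that names Rian with the snoRNA AF357355 gave 9.08 and 6.81, a difference of -2.27 or 4.83-fold with both values above the floor. The 2 probe sets for Rian thus point the same way and differ in size. Mirg, the host nearest to Dio3, shares its probe set with Mir410, which gave 9.04 and 6.52, a difference of -2.52 or 5.75-fold.

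The snoRNAs of the cluster are of the box C/D kind, whose general role is to guide methylation of other RNAs, and no target is established for most of the imprinted ones. DQ267102 gave 11.65 for the wild type and 10.16 for the double knockout, a difference of -1.49 or 2.82-fold. DQ267101 (5.20 and 3.62) and AF357341 (4.81 and 3.75) lay under the floor on both arrays and were lower in the double knockout as deposited. The other member, AF357355, is the one that shares a probe set with Rian. Of 102 snoRNA probe sets elsewhere in the genome, 0 were at least 2-fold lower as deposited, and their median difference was 0.28.

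The microRNA genes fall into position groups. Those within the RefSeq span of Rtl1 lie on the strand opposite to it, and 9 of them have a probe set. All 9 were lower as deposited, 7 of them by 2-fold or more. Their median was -1.49. Mir665 gave 8.42 and 6.73, Mir540 gave 7.99 and 6.45, and Mir673 gave 6.98 and 6.44. These 3 were above the floor on both arrays, with differences of -1.70, -1.54 and -0.54. Mir337 gave 7.49 and 5.74, at least 2.47-fold lower. Mir433, whose probe set also names 6430411K18Rik, gave 7.04 and 5.34, at least 1.80-fold lower. Mir433 and Mir431 (6.61 and 5.57) as well as Mir127 (6.26 and 4.86) were under the floor in the double knockout alone. Mir127 and Mir433 are known for sites perfectly matched to Rtl1 messages, which they cut.

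Within the span of Rian, Mir341 gave 8.77 and 7.37, a difference of -1.40 or 2.64-fold with both values above the floor. Mir370 was under the floor on both arrays (5.13 and 4.64).

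The longest run of microRNA genes in the cluster goes from Mir379 to Mir410, through the gap between Rian and Mirg and into Mirg. Its 31 probe sets were all lower as deposited, 26 of them by 2-fold or more and 15 by 4-fold or more. Their median was -1.99. Of those 15, 2 were above the floor on both arrays, Mir134 and the probe set of Mirg and Mir410, and for the others the size is not measured. With low values raised to the floor, 3 of the 31 were at least 4-fold lower.

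Among the 31, the wild-type array had 15 above the floor, and 6 of these exceeded it on the double-knockout array too. Mir134, studied in neurons for its control of dendritic spines, gave 9.10 and 7.05, a difference of -2.05 or 4.13-fold. Mir679 gave 7.90 and 6.22, a difference of -1.68, and Mir668 gave 8.03 and 6.54, a difference of -1.49. The shared probe set of Mirg and Mir410 is the fourth that was at least 2-fold lower. The others of the 6 differed little: Mir667 gave 7.81 and 7.30 (-0.51), and Mir666 gave 6.46 and 6.42.

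The other 9 of these 15 were under the floor in the double knockout, so their floored differences are bounds. Mir377, whose seed is printed above, gave 8.48 and 5.39, at least 4.91-fold lower. Mir485 gave 7.81 and 5.31, at least 3.09-fold lower, and Mir382 gave 7.56 and 4.86, at least 2.60-fold lower. Mir323 gave 7.56 and 5.13, at least 2.59-fold lower, and Mir329 gave 7.46 and 4.91, at least 2.41-fold lower. These 5 were the bounds of the run that passed 2-fold. The other 4 began too close to the floor: Mir300 gave 6.89 and 3.56, Mir380 gave 6.73 and 3.94, Mir487b gave 6.48 and 4.37, and Mir369 gave 6.33 and 3.31. Their deposited differences were -3.32, -2.79, -2.11 and -3.01, of which the part under the floor is not measured.

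The remaining 16 probe sets of the run were under the floor on both arrays, and 13 of them had deposited values at least 2-fold lower. The lowest deposited difference among these was that of Mir379 (4.91 and 2.004). Of the genes that share a seed, all but Mir410 lay under the floor on both arrays. The sizes of their deposited differences are thus not measured, and the pairs are given without order. Mir379 and Mir411 differed by -2.91 and -1.83. Mir376b and Mir376c differed by -2.03 and -0.12, and Mir376c lay at 1.88 and 1.76, near the lowest value on the arrays (1.42). Mir410 and Mir494 differed by -2.52 and -0.95.

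**Figure D2:**
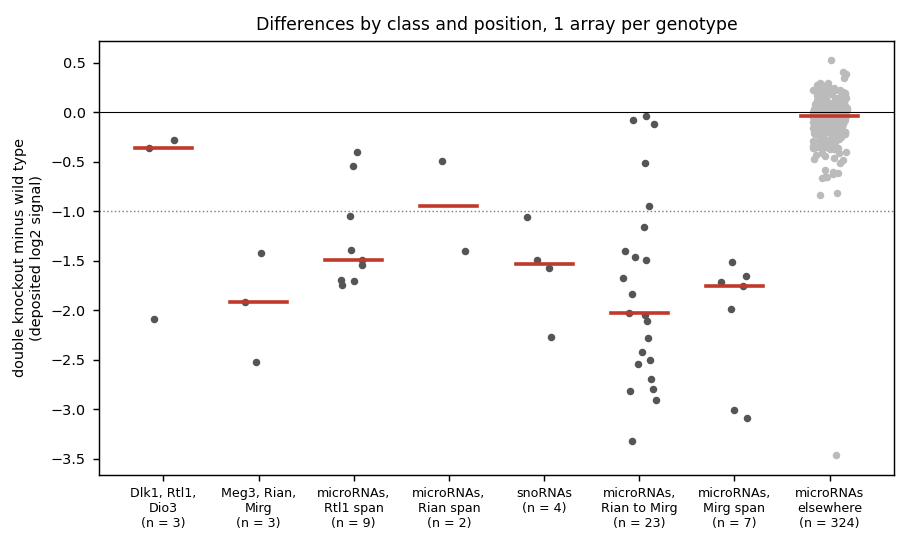
Difference between the arrays (vertical axis, double knockout minus wild type, deposited log2 signal) for each member probe set by class and position, with the microRNA probe sets elsewhere in the genome. Points are probe sets, red lines medians, and the dotted line marks 2-fold lower. The 7 groups of cluster members have medians from -2.03 to -0.36, and the microRNA probe sets elsewhere a median of -0.04.

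In all, 10 of the 51 members were less than 2-fold lower as deposited. They were Dlk1 and Dio3 and 8 maternally expressed members: Mir673, Mir434, Mir370, Mir299a, Mir494, Mir666, Mir667 and Mir376c. Of these 8, Mir434 (2.96 and 2.56), Mir299a (2.58 and 2.50) and Mir376c lay near the bottom of the scale on both arrays.

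Of the 324 microRNA probe sets elsewhere in the genome, 1 was at least 2-fold lower. Most of them had low signal, and 284 were under the floor on both arrays. Their median wild-type signal was 3.50, against 6.39 for the 42 cluster probe sets that name a microRNA. With low values raised to the floor, 1 of the 40 measured elsewhere (2.5%) was at least 2-fold lower. Among the 23 measured cluster probe sets that name a microRNA it was 13. Only 10 of these 23 exceeded the floor in both samples, and 7 of the 10 were at least 2-fold lower. Elsewhere 35 of the 40 exceeded it in both, and 0 of the 35 were at least 2-fold lower. The other 13 cluster probe sets fell under it in the double knockout alone. For them only a lower value was possible, and 6 passed 2-fold. The same held for 5 elsewhere, of which 1 passed. The largest difference among the 324 was in the probe set of Lincmd1 and Mir133b, a muscle microRNA and its host, which gave 7.74 and 4.28. The next was -0.84 and the highest 0.52, the latter with both values under the floor.

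**Figure D3:**
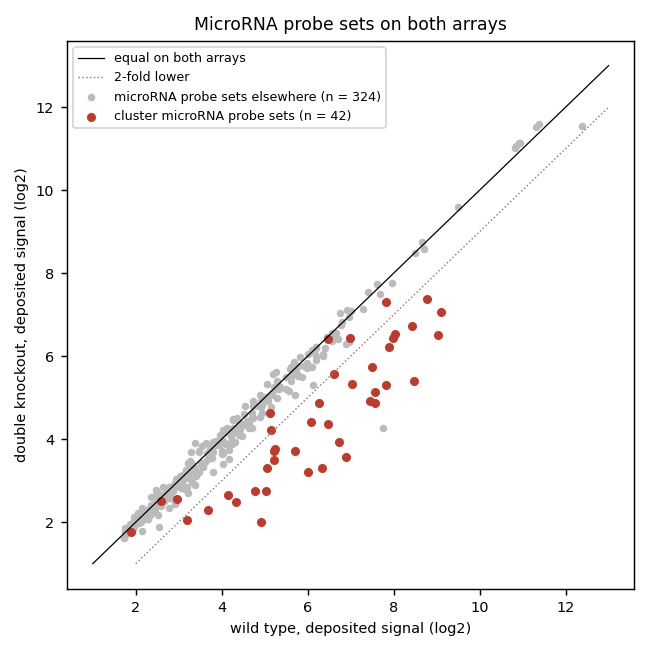
Deposited log2 signal on the wild-type array (horizontal axis) against the double-knockout array (vertical axis) for the 42 cluster probe sets that name a microRNA (red) and the 324 microRNA probe sets elsewhere (grey). The solid line marks equal signal and the dotted line 2-fold lower. Of the red points 34 lie on or below the dotted line, and 1 of the grey points does. Under the floor on both arrays were 19 of the red points and 284 of the grey points.

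The genes on either side of the cluster were read in the same way, with no test. Of 17 neighbouring genes of chromosome 12, 16 had a probe set of their own and 10 were measured, that is above the floor on at least 1 array. Among these 10, none was 2-fold apart in either direction, where 2.73% of all measured genes were lower and 0.51% higher by at least 2-fold. Their median difference was 0.19, against 0.10 over all 10393 measured genes. The highest was Yy1, a zinc finger factor on the Dlk1 side (0.34), and the 1 gene that was lower was Wdr20, on the Dio3 side (-0.12). Begain, the protein-coding gene next to Dlk1, was under the floor on both arrays.

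**Figure D4:**
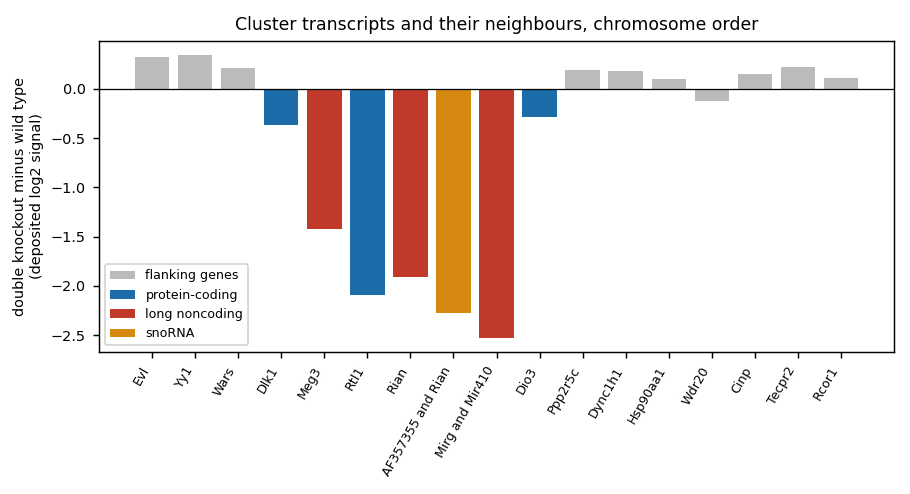
Difference between the arrays (vertical axis, double knockout minus wild type, deposited log2 signal) for the 10 measured neighbouring genes (grey) and for the probe sets of Dlk1, Meg3, Rtl1, Rian, Mirg and Dio3 alone, in chromosome order. Rtl1 and the probe set of Rian alone were under the floor in the double knockout, and Dio3 on both arrays. Bars start at 0 and carry no error, since there is 1 array per genotype. The neighbours drawn range from -0.12 to 0.34 and the cluster probe sets drawn from -2.52 to -0.28.

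The promoter of Meg3 is shown because the noncoding members lie downstream of it in the same direction, and that of Dlk1 because Dlk1 differed least among the genes above the floor that code for protein. Each window holds the 250 bases before the RefSeq start on GRCm38.p6, plus strand. Capitals mark TGACGTCA, the cAMP response element, a motif chosen after the sequence had been read.
Meg3, chr12:109540746-109540995: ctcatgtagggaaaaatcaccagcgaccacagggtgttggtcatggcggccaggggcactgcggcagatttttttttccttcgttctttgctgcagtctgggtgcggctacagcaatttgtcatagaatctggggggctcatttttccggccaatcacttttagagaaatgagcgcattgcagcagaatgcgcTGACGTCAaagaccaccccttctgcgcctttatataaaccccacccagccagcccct
Dlk1, chr12:109452573-109452822: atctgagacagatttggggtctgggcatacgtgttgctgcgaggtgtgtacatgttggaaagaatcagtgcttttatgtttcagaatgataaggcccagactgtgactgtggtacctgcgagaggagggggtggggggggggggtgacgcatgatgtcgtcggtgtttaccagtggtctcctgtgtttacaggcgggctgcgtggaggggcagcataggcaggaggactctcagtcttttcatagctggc
TGACGTCA is palindromic, so that a match stands for both strands. It occurs 1 time in the Meg3 window and 0 times in the Dlk1 window, and 1.55% of all 32851 windows of this length hold it. The E-box CANNTG, the motif that Myf5 and MyoD bind, is also palindromic. It occurs 0 times in either window, whereas 66.2% of all windows hold at least 1. RefSeq's second Meg3 start, the Rian start and the Mirg start have 1 CANNTG each in the same length. A match or its lack describes the letters of these windows alone.

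The samples also differed in the signal of tissue markers. Of 20 skeletal muscle fibre markers, 19 were at least 2-fold lower, and their summed linear signal was 45830 for the wild type and 655 for the double knockout. Pygm was the only one above the floor in the double knockout. The muscle actins Actc1 (12.47 and 5.94) and Acta1 (12.20 and 5.64) had the highest bounds. Of 14 measured myoblast and satellite cell markers, 7 were lower by at least 2-fold and none higher by as much. The summed signals of all 15 markers with a probe set were 5559 and 913. The intermediate filament gene Des gave 11.28 and 6.33, and Mymk, a gene of myoblast fusion, gave 9.86 and 5.21. In a bulk sample, fewer cells of a type and less RNA per cell cannot be told apart. The part of muscle loss in the cluster's differences was not tested. All 11 salivary gland markers were at least 2-fold higher, with summed signals of 4313 and 22540, among them Prol1 (4.77 and 10.32) and Pip (7.17 and 11.30). Of 14 genes of mandible identity 13 exceeded the floor on each array. Among these 13, 12 were higher and 1 lower in the double knockout, and 0 were 2-fold lower or higher. Their median difference was 0.58, against 0.10 over all measured genes. Dlx2 (8.28 and 9.12) and Hand2 (6.93 and 7.77) differed most. The targeted genes gave 6.31 and 4.95 (Myf5) and 7.14 and 6.49 (Myod1). Transcripts of the Y chromosome were uneven (Eif2s3y 2.38 and 6.55), and Xist was 10.87 and 10.22. The part of sex in these differences was not tested.

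Markers of other cell types that may express Dlk1 or Meg3 were read as well. Over all measured genes 2.73% were at least 2-fold lower and 0.51% higher, so a short list with none 2-fold apart is near that share. The 7 measured adipocyte and preadipocyte markers had 0 members at least 2-fold apart and a median of 0.08, with Fabp4 (-0.72) and Lpl (-0.69) the widest. The 8 endothelial markers had a median of 0.03, with Tek (-0.49) and Cldn5 (-0.37) the widest. The 10 measured chondrocyte markers had a median of 0.31, and 1 of them, Ucma, was at least 2.26-fold higher (6.05 and 7.36). Sox9, a chondrocyte transcription factor, followed at 0.76. The 8 osteoblast markers had a median of 0.47 and 0 members 2-fold apart, with Omd (0.84) and Phex (0.65) the widest. In the neuron and endocrine list 3 markers were measured and 0 were 2-fold apart, with a median of 0.44. Tubb3 gave 6.16 and 6.67, and Stmn2 gave 7.69 and 8.13.

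Genes that act on or with the cluster were looked at by list. Dlk1 is related to the ligands of the Notch pathway, in which 0 of 24 measured members were 2-fold apart, with a median of 0.15. The widest were Hey1, a target of Notch signalling (8.43 and 9.02), and the ligand-like Dner (6.50 and 6.94). Of 14 measured genes of thyroid hormone handling, 1 was at least 2-fold lower, the retinoid receptor Rxrg (8.39 and 5.58, at least 4.60-fold). Crym, a thyroid hormone binding protein, was at least 1.74-fold lower (6.99 and 6.01), and Thrsp, a thyroid hormone responsive gene, at least 1.14-fold (6.37 and 4.45). These are bounds and give no order. Over the 14 genes the median was -0.06.

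Of 17 measured imprint and Polycomb regulators, 0 were 2-fold apart, with a median of 0.23. Suz12, a core PRC2 subunit (8.47 and 8.89), and the methylcytosine oxidase Tet1 (8.19 and 8.57) were the widest. Of 15 measured genes of microRNA biogenesis, 0 were 2-fold apart, with a median of 0.07. Ago2, the slicing Argonaute, was lower (9.64 and 9.02), and Prkra, a partner of Dicer, was higher (6.45 and 6.95). The MEF2 factors, reported to drive the cluster in muscle, were measured in 3 members, with 0 of them 2-fold apart and a median of -0.47. Mef2c gave 10.05 and 9.05, a difference just short of 2-fold (1.995-fold), Mef2d 9.44 and 8.97, and Mef2a 9.64 and 9.59.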

How the data were processed

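The deposited table gives 1 value per probe set on each array. MAS5 is the tool named, without a version, in the submitters' processing notes. Per the labels' protocols biotinylated cRNA was made from 6 µg of total RNA. The authors' values are log2 signals, the base read from the range of the deposited values (1.42 to 13.35). Background correction, scaling between arrays and genome build are not stated in the sources used here. The arrays were compared as deposited (medians 5.48 and 5.45).

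Gene names came from GEO's platform annotation (21789 probe sets with 1 gene, 1621 with several, 12147 with none listed), and members were matched by Entrez identifier, symbol or accession to RefSeq genes from Dlk1 to Dio3. Position groups use RefSeq spans on GRCm38.p6. Which build the array annotation used is not known here. In gene lists a gene is its brightest probe set by mean linear signal. Whether a microRNA probe set reads the hairpin, its host RNA or the mature form is not stated in the sources used here. A difference of 2-fold is 1 on the log2 scale. The number of arrays limits the precision, and no p-values were computed.

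Named are all probe sets of Dlk1, Meg3, Rtl1, Rian, Mirg and Dio3, all members above the floor on at least 1 array, the member microRNAs with the most extreme differences, the highest and the lowest flanking gene, and the 2 measured genes of each other list with the largest floored difference. Other genes named were chosen after their values were seen. The members and the lists were chosen with earlier results of these data known, so their counts describe and support nothing independently. Alternatives were other scalings, floors and fold thresholds. The counting script was tested on simulated shifts of probe sets well above the floor. Python 3.11.15, pandas 2.3.3 and Biopython 1.88 were used.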

Additional observations from a re-analysis of the deposited data

How the results depend on the processing

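All 29 measured members stayed lower in the double knockout when the median over genes was centred on 0, after quantile normalisation, with the floor lowered to the 25th percentile, with a floor taken as the median over every probe set (an alternative chosen after seeing the data) and with the floor removed. Raising the floor to the 75th percentile left 14 members measured, and all 14 were lower. These settings could hardly have changed the direction. In each of the 15 bounds a raised double-knockout value meets a brighter wild-type value, which makes the difference negative by construction. Lowering or removing the floor brings back deposited differences, from which the cluster was picked. The unchanged direction is therefore no independent check. The number of members at least 2-fold lower, 18 as reported and 17 of them maternally expressed, depended on the floor. It was 31 (30 maternally expressed) for the 25th percentile, 5 (5) for the 75th and 41 (40) with the floor removed, and 7 (7) at a threshold of 3-fold. The number at least 2-fold higher was 0 under every alternative run, and no member was higher as deposited. The median of measured members, -1.31, was -0.68 for the 75th percentile and -1.68 with the floor removed. That of the maternally expressed members, -1.37, was -0.71 and -1.69. Some list medians near 0 changed sign. The adipocyte median, 0.08, was -0.60 for the 75th percentile and -0.02 after centring, the endothelial median, 0.03, was -0.06 after centring and -0.01 after quantile normalisation, and the microRNA biogenesis median, 0.07, was -0.03 after centring. Rian differed by -2.27 in its brightest probe set and by -1.70 in the median over both. The other probe set enters that median at its floored bound of -1.14 (deposited -1.91), so the median is a bound too. No paired analysis was possible because each genotype has 1 array.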

Other observations

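The GC content of the hairpins, which the choice of members did not use, was set beside the values, as a description over 41 microRNA genes with a hairpin sequence in RefSeq. All of these hairpins lie on the plus strand and were measured on the same pair of arrays, so they share library, array and, in part, host RNA. Their GC content ran from 29.1% to 62.0%, with a median of 45.1%. GC content had a Pearson r of 0.59 and a Spearman rho of 0.56 with the wild-type signal, and 0.20 and 0.22 with the deposited difference between the arrays. With that difference the wild-type signal had -0.455 and -0.342, and chromosome order -0.424 and -0.439. The wild-type value is subtracted in the difference, and probe sets near the bottom of the scale had little room to fall. A negative correlation between wild-type signal and difference is therefore partly built in, and nothing is read from it. Of the 42 cluster probe sets that name a microRNA, 19 were under the floor on both arrays and 13 in the double knockout alone. The sizes of most of these differences are thus not measured. The 20 hairpins with a GC content above the median had a median deposited difference of -1.67, and the other 21 one of -1.84.

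Hairpins of similar sequence may share signal on an array. Of 820 pairs of member hairpins, 7 were identical in at least 70% of their aligned bases. The closest were Mir376b and Mir376c (80.7%), whose deposited differences were -2.03 and -0.12, and Mir300 and Mir381 (73.8%), with -3.32 and -2.28. Each of these lay under the floor in the double knockout, so the sizes are not measured.

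The third-lowest of the 324 microRNA probe sets elsewhere, as deposited, named Mir22 and its host Mir22hg (6.12 and 5.30). Both of its values lay under the floor, so the size of its difference is not measured. The second-lowest named Mir675 with Supt6 (12.39 and 11.55).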
